A study of Mus musculus with 9 samples.

Results

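The genes described here are 48 interferon-stimulated genes and their regulators, taken as every probeset whose single gene symbol in the array annotation was one of those names. Of these, 46 genes were measured, by 87 probesets, among 18193 genes with a symbol of their own on the array. Isg15 and Ifi44 had no probeset of that kind and were not measured. Where a gene had several probesets, its value is that of the probeset with the highest mean over all arrays. Levels are log2 units of Robust Multichip Average (RMA) expression, in which a difference of 1 is a doubling.

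RNA came from Balb/c-3T3 cells, an immortalized mouse embryo fibroblast line, on 9 Affymetrix expression arrays. The control cells were the unmodified parental line, the v-Src cells were stably transfected with pMvSrc, which carries the oncogenic tyrosine kinase of Rous sarcoma virus, and the STAT3-C cells with pRc/CMV-STAT3C, which carries a constitutively active mutant of the transcription factor STAT3. All were grown in DMEM with bovine calf serum, and no interferon treatment is named for any of them. Each line gave 3 arrays, 1 from each of consecutive passages with 5 dishes pooled, so p-values measure the spread between passages of 1 stable line, and the transfected gene cannot be told apart from other differences between that line and the control cells. Control cells carrying an empty plasmid were not analysed here.

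Type I interferons bind the receptor chains Ifnar1 and Ifnar2, and the kinases attached to the receptor then assemble a factor of STAT proteins and Irf9 that binds the interferon-stimulated response element (ISRE) in the promoters of target genes. Those targets include the sensors of viral nucleic acid, the interferon regulatory factors (IRFs) and the antiviral effectors, so the sensors and factors that start the response are themselves among its products. Fibroblasts are a classical source of interferon beta and respond to it themselves.

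Most of the interferon-stimulated genes were lower in both transfected lines than in control cells. Averaged over the 46 genes, the log2 level was 9.29, 9.92 and 9.79 on control arrays 1, 2 and 3, 7.58, 7.92 and 7.89 on v-Src arrays 1, 5 and 6, and 8.02, 7.73 and 7.86 on STAT3-C arrays 1, 2 and 3. The means were 9.67 ± 0.33 in control cells, 7.80 ± 0.19 in v-Src cells and 7.87 ± 0.14 in STAT3-C cells (SD, n = 3). Every transfected array lay below every control array, while the v-Src and STAT3-C arrays overlapped. The medians over all probesets ran only from 6.27 to 6.39 across the 9 arrays. In a bulk culture, fewer cells with a transcript and less of it in each cell cannot be told apart.

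**Figure D1:**
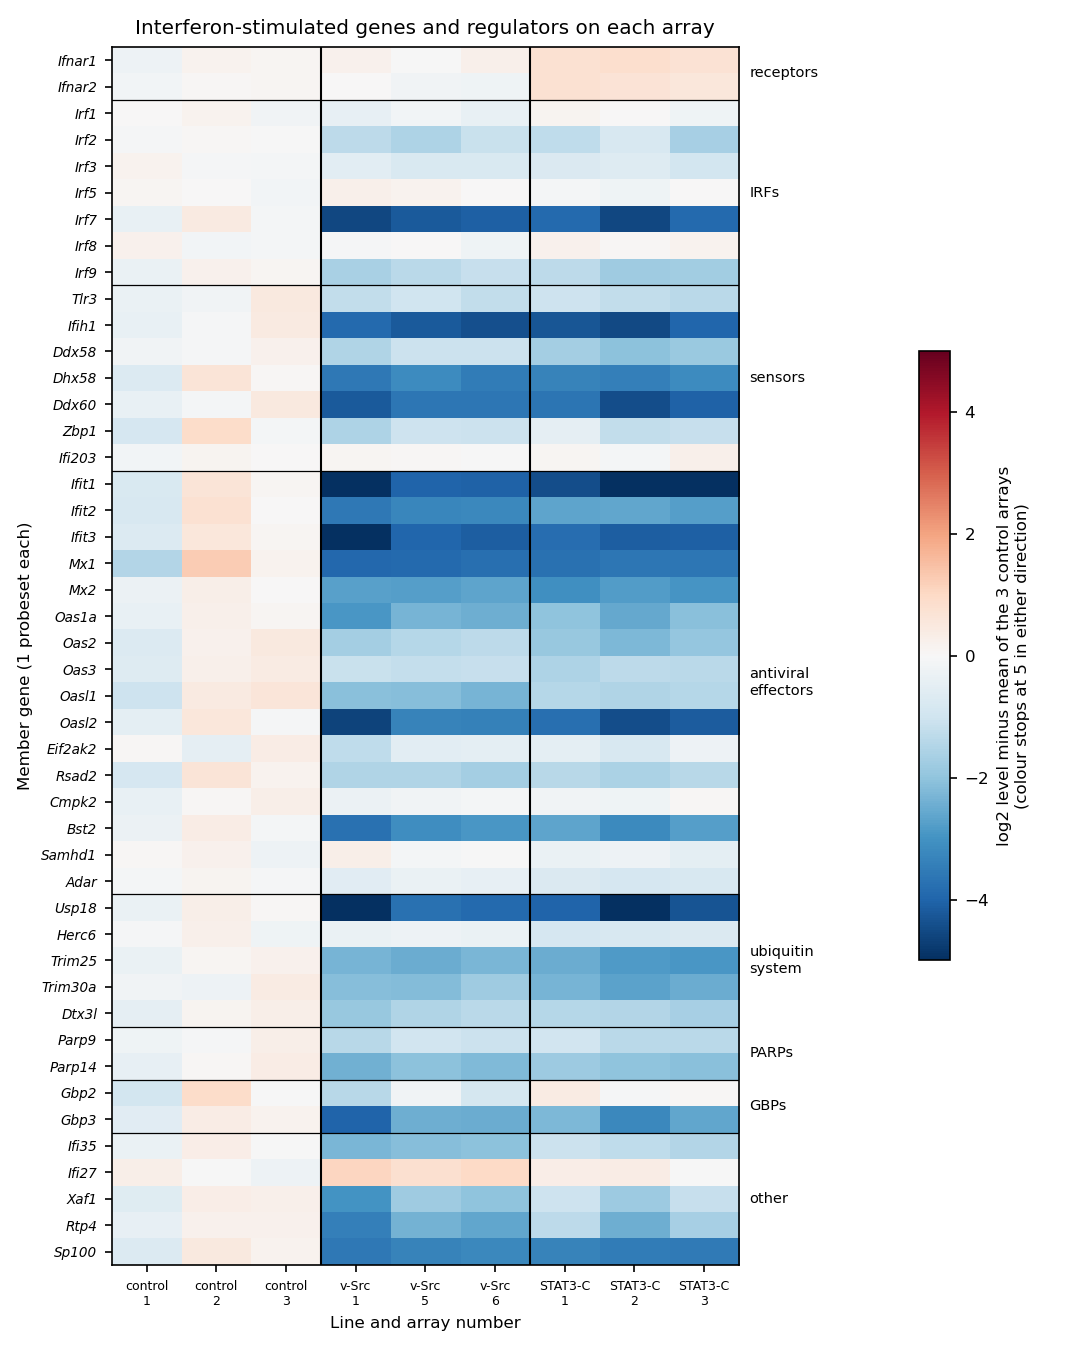
Log2 level of each of the 46 genes on each array, drawn as the difference from the mean of the 3 control arrays, with genes in rows grouped by role and arrays in columns grouped by line. Blue is lower and red higher, the colour stops at 5, and the blue rows of the transfected lines contrast with the pale rows of Irf1, Irf5, Irf8 and Ifi203.

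A gene was called where it changed by at least 1.5-fold with an adjusted p under 0.05 in limma. In v-Src cells 32 of the 46 genes were lower than in control cells, against 10.4% of all genes, and 1 was higher, against 9.54% of all genes. In STAT3-C cells 34 were lower, against 10.3% of all genes, and 2 were higher, against 11.9% of all genes. The same 32 genes were lower in both lines, against 6.74% of all genes, and Adar and Herc6 were lower in STAT3-C cells but not called in v-Src cells. The median log2 difference over the 46 genes was -1.58 in v-Src and -1.48 in STAT3-C cells, beside 0.02 and 0.04 over all genes. Counted by probeset, 52 of the 87 were lower and 2 higher in v-Src cells, beside 8.1% and 8.75% of all probesets, and 55 were lower and 2 higher in STAT3-C cells, beside 8.58% and 9.68%. The comparisons share the control arrays, so their values are given side by side and are not independent of each other.

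The falls were large as well as common. Levels at least 4-fold lower were found for 22 of the 46 genes in v-Src cells, beside 1.18% of all genes, and for 18 in STAT3-C cells, beside 1.13%. At 8-fold or more there were 12 genes in v-Src cells, beside 0.484% of all genes, and 10 in STAT3-C cells, beside 0.429%. At 16-fold or more there were 5 genes in v-Src cells, beside 0.209% of all genes, and 7 in STAT3-C cells, beside 0.203%. Among the 32 genes lower in both lines the fall ran from 1.61-fold to 22.4-fold in v-Src cells, with a median of 5.49-fold, and from 1.70-fold to 34.6-fold in STAT3-C cells, with a median of 5.14-fold. For all 32, no v-Src or STAT3-C array reached the lowest control array. Over all 46 genes the control and transfected arrays did not overlap, on the lower side, for 36 genes in v-Src cells, beside 23% of all genes, and for 35 in STAT3-C cells, beside 20.8%.

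**Figure D2:**
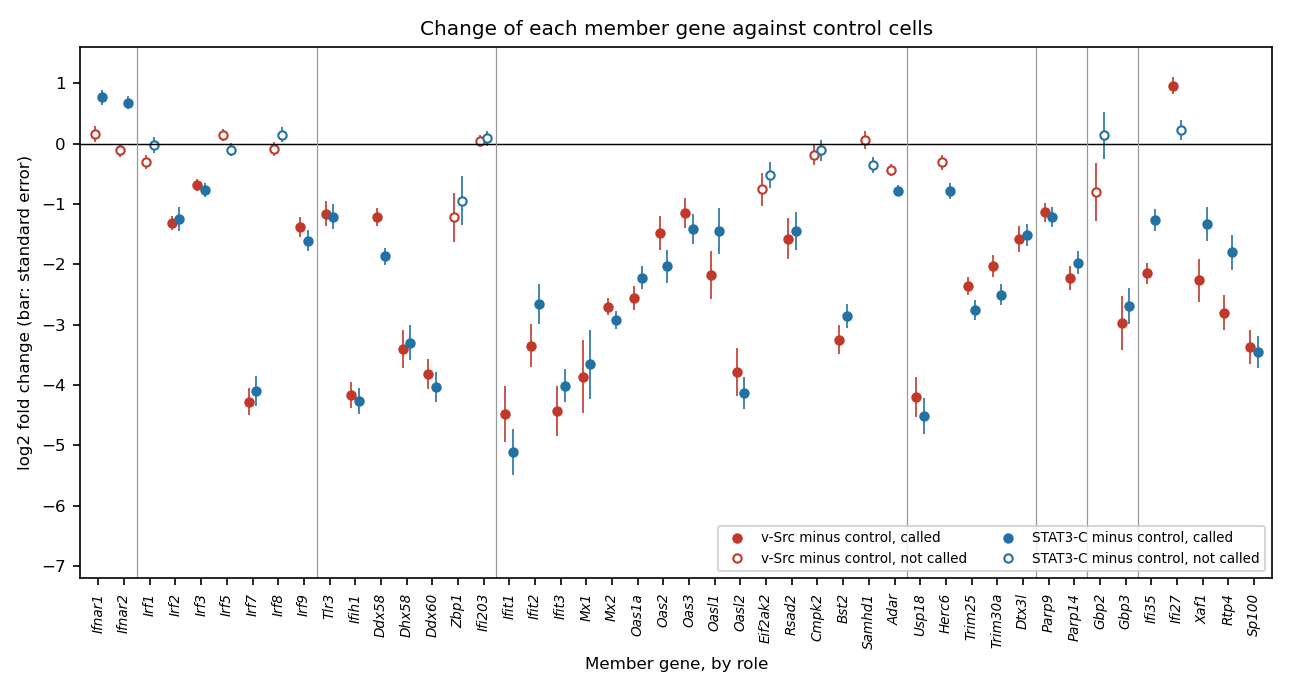
Log2 fold change of each gene against control cells, for v-Src (red) and STAT3-C (blue), with bars of 1 standard error from limma on 6 arrays and genes ordered by role. Filled points were called and open points were not. The deepest points are those of Ifit1, at -4.48 and -5.11, and the points above 0.5 are those of Ifnar1 and Ifnar2 in STAT3-C cells and that of Ifi27 in v-Src cells.

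The control arrays did not stand at 1 level. Control array 1 was the lowest control array for 30 of the 32 genes lower in both lines, compared with 5791 of 18193 genes overall. v-Src array 1 was the lowest of its line for 23 of the 32, and STAT3-C array 2 for 19. Leaving out control array 1 could only deepen the falls of those 30 genes. The median over the 46 genes was then -1.90 in v-Src and -1.82 in STAT3-C cells. Without control array 2 it was -1.45 and -1.38, and without control array 3 it was -1.45 and -1.36.

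The IFIT proteins bind viral RNA and block its translation, and all 3 measured genes of the family were lower in both lines. Ifit1 measured 11.28, 12.67 and 12.12 on control arrays 1, 2 and 3, 6.61, 8.02 and 8.0 on v-Src arrays 1, 5 and 6, and 7.59, 6.5 and 6.64 on STAT3-C arrays 1, 2 and 3. It was 22.4-fold lower in v-Src cells (log2 difference -4.48 ± 0.47, SE, adjusted p = 0.000516 by limma) and 34.6-fold lower in STAT3-C cells (-5.11 ± 0.38, adjusted p = 4.9e-05). All 6 transfected arrays lay more than 3 log2 units under the lowest control array.

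Ifit3 measured 10.99, 12.24 and 11.75 on the control arrays, 6.45, 7.71 and 7.53 on the v-Src arrays and 7.83, 7.52 and 7.60 on the STAT3-C arrays. The log2 difference was -4.43 ± 0.41 in v-Src cells and -4.01 ± 0.28 in STAT3-C cells (SE). Its groups did not overlap with control in either line, and v-Src array 1 stood below the other v-Src arrays for both Ifit1 and Ifit3. Ifit2 fell less, and the lines differed for it, as described with the direct comparison. The mouse genome holds near-identical copies of Ifit1, Ifit3 and Oas1a, and how far the probes also detect those copies was not tested.

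Promoter sequence is shown for genes whose windows hold a core of the sites that interferon-activated factors bind. Of the genes described at array level with a core wholly before the start, the 5 with the largest change against control are given, which leaves out Irf1, whose GAS core reads TTCCCCGAA and begins 90 bases before the start. The 250 bases before the RefSeq gene start are printed 5′ to 3′ on the strand of the gene (build GRCm38.p6, a C57BL/6J reference, whereas the cells are Balb/c). Capitals mark the ISRE core, which reads GAAA, any 2 bases and GAAA again, in Ifit1, Ifit3 and Ddx60, and the core of the gamma-activated site (GAS) that STAT dimers bind, which reads TTC, any 3 bases and GAA, in Ifit2 and Ifnar2. Both were searched on both strands, so that an ISRE core on the opposite strand reads TTTC at each end. The windows are chr19:34640639-34640888 for Ifit1, chr19:34583279-34583528 for Ifit3, chr8:61927837-61928086 for Ddx60, chr19:34550444-34550693 for Ifit2 and chr16:91372533-91372782 for Ifnar2, all on the plus strand.
Ifit1: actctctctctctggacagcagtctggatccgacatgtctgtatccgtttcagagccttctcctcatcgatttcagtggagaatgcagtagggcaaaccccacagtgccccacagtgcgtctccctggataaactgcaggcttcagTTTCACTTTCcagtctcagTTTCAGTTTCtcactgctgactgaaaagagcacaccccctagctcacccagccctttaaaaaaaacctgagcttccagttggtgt
Ifit3: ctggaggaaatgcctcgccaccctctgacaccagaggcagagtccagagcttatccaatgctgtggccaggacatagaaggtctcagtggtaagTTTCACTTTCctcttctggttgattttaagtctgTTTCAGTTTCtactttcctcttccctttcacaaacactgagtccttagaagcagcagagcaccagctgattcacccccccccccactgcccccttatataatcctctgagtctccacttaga
Ddx60: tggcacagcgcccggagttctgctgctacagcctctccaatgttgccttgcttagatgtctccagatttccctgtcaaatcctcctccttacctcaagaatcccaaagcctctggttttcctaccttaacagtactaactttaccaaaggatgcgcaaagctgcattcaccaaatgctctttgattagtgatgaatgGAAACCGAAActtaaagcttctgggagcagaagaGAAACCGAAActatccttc
Ifit2: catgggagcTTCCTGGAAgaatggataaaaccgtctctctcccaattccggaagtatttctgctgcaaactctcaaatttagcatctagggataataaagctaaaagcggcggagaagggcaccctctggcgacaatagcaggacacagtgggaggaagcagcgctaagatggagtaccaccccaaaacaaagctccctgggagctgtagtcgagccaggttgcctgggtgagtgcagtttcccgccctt
Ifnar2: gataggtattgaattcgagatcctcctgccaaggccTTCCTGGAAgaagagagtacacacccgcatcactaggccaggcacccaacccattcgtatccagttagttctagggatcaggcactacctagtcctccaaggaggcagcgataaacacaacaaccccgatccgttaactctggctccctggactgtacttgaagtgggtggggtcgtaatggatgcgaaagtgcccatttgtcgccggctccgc

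Ifit1 and Ifit3 carried the same pair of ISRE cores, TTTCACTTTC and then TTTCAGTTTC, beginning 104 and 85 bases before the start in Ifit1 and 156 and 122 bases before it in Ifit3. In Ddx60 both cores read GAAACCGAAA, 53 and 19 bases before the start. Ifit2 had no ISRE core in this window, and its GAS core has the same letters as that of Ifnar2, TTCCTGGAA. A match is a description of letters and not a site shown to be bound.

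Of the 46 measured genes, 36 had a promoter window of 300 bases, which runs from 250 bases before the start to 50 after it. The ISRE core occurred in 15 of the 36 (41.7%), beside 3.99% of all 27025 genes with a window, and the GAS core in 12 (33.3%), beside 9.55%. Among the 24 genes with a window that were lower in both lines, 12 held an ISRE core and 5 a GAS core. Among the other 12 genes the counts were 3 and 7. In Bst2 the GAS core overlaps an ISRE core. The windows of Irf3, Irf5, Irf7, Irf9, Tlr3, Oasl1, Oasl2, Cmpk2, Herc6, Trim25, Dtx3l, Xaf1 and Sp100 held neither core. No window was used for Dhx58, Zbp1, Mx1, Mx2, Oas2, Usp18, Parp9, Parp14, Ifi27 and Rtp4.

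**Figure D3:**
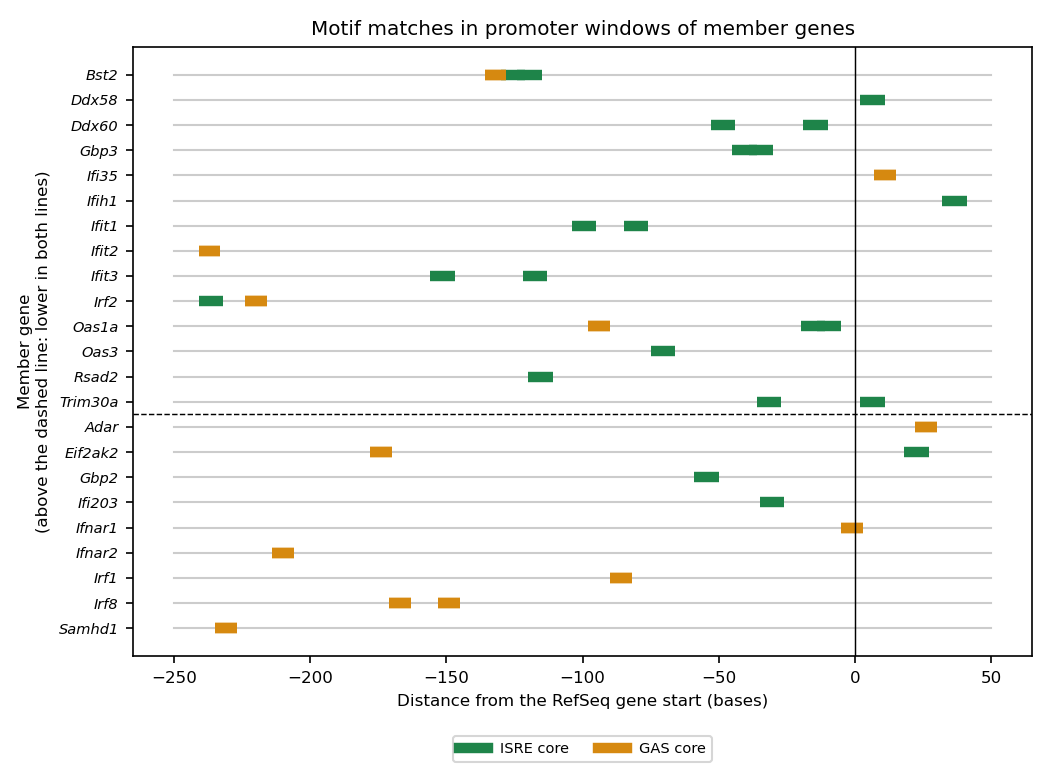
Position of each ISRE core (green) and GAS core (orange) in the promoter windows of the genes that held either, against the distance in bases from the RefSeq gene start at 0. Genes above the dashed line were lower in both transfected lines, 12 of them with an ISRE core, and 3 genes below it held one.

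Neither receptor chain was called lower in either line. Ifnar1, the chain shared by all type I interferons, measured 7.49, 7.93 and 7.86 on the control arrays, 7.99, 7.75 and 8.02 on the v-Src arrays and 8.50, 8.58 and 8.49 on the STAT3-C arrays. Ifnar2, the chain that binds interferon most tightly, measured 9.54, 9.73 and 9.80, then 9.72, 9.52 and 9.50, and then 10.46, 10.37 and 10.27 on the same arrays in the same order. For both genes the STAT3-C arrays stood above all other arrays, and by these probesets the v-Src arrays overlapped with control.

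Against control, Ifnar1 was 1.70-fold higher in STAT3-C cells (log2 difference 0.77 ± 0.13, SE, limma adjusted p = 0.00264) and Ifnar2 was 1.6-fold higher (0.68 ± 0.11, adjusted p = 0.00188). In v-Src cells the 95% intervals of the difference ran from -0.16 to 0.49 for Ifnar1 and from -0.35 to 0.13 for Ifnar2. These rises rest on 1 probeset of each gene. The other Ifnar1 probeset gave -0.21 in STAT3-C cells and the other Ifnar2 probesets 0.07 and -0.05, none of them called. In v-Src cells the other Ifnar1 probeset gave -0.14, with overlap, whereas the other Ifnar2 probesets gave -0.27 (limma adjusted p = 0.0449) and -0.54 (adjusted p = 0.00219). For both of these every v-Src array was below every control array, and the fold was under the threshold. The probesets of Ifnar2 thus differ, and which of them follows the full transcript was not tested.

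Among the 7 interferon regulatory factors, 4 (57.1%) were lower in each line and 3 were called in neither. Over all genes 10.4% were lower in v-Src and 10.3% in STAT3-C cells. Irf7, the factor that amplifies interferon production once a response has started, measured 10.99, 11.83 and 11.27 in control cells, 6.83, 7.17 and 7.27 in v-Src cells and 7.49, 6.82 and 7.47 in STAT3-C cells. It was 19.3-fold lower in v-Src cells (-4.27 ± 0.22, SE, limma adjusted p = 2.76e-05) and 17.2-fold lower in STAT3-C cells (-4.10 ± 0.25, adjusted p = 1.83e-05). No transfected array came within 3 log2 units of a control array.

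Irf9 is the DNA-binding part of the factor that recognizes the ISRE. Its levels were 8.98, 9.53 and 9.41 in control cells, 7.68, 7.95 and 8.14 in v-Src cells and 7.99, 7.52 and 7.57 in STAT3-C cells, with no overlap between control and either line. The log2 difference was -1.38 ± 0.17 in v-Src and -1.61 ± 0.18 in STAT3-C cells (SE), a smaller fall than that of Irf7. Irf2, which competes with Irf1 for its sites, fell by 1.31 and 1.25 on the log2 scale, and Irf3, the factor that is present before infection and activated by the sensors, fell by 0.69 and 0.76. The remaining Irf3 probesets were not called.

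Irf1, which is induced by interferon gamma in particular, measured 9.77, 9.94 and 9.60 in control cells, 9.37, 9.63 and 9.39 in v-Src cells and 9.90, 9.79 and 9.56 in STAT3-C cells. The groups overlapped in both comparisons, and the 95% interval of the log2 difference was -0.59 to -0.03 in v-Src cells and -0.32 to 0.27 in STAT3-C cells. Irf5 and Irf8, known mainly from myeloid and lymphoid cells, were not called by any probeset, with log2 differences of 0.15 and -0.09 in v-Src cells and -0.11 and 0.15 in STAT3-C cells. The other Irf5 probeset stood at 0.49 in STAT3-C cells (limma adjusted p = 0.0111, no overlap, fold under the threshold). Its direct difference, v-Src minus STAT3-C, was -0.43 (adjusted p = 0.0147), also under the fold threshold.

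**Figure D4:**
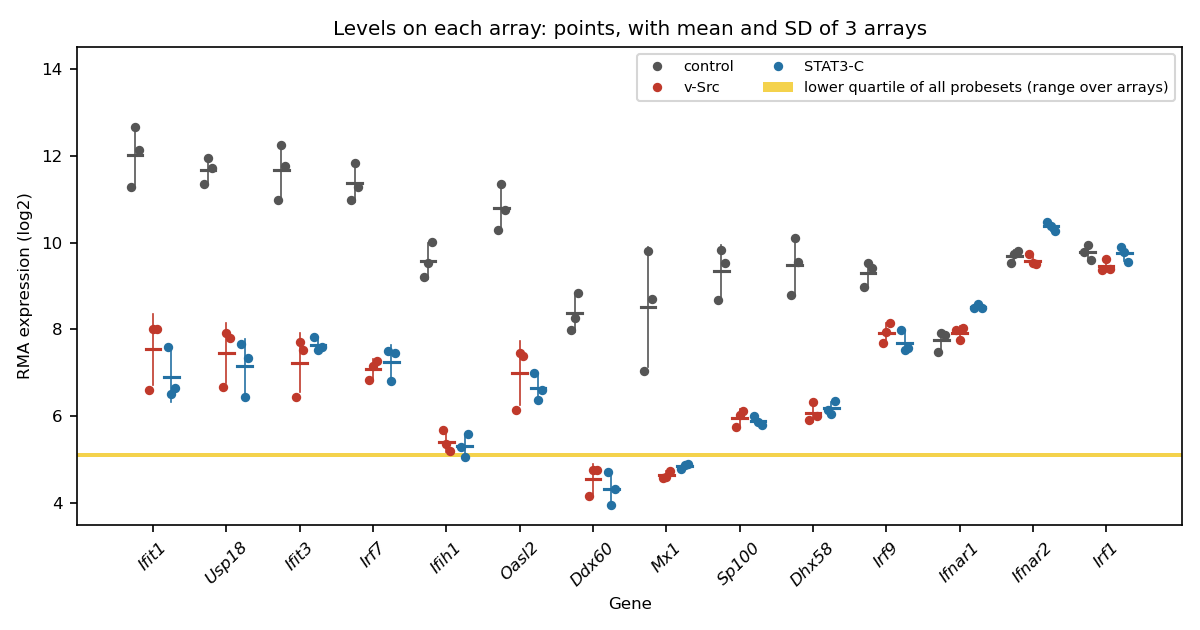
RMA expression in log2 units of 14 genes on each array, with points for single arrays, horizontal marks for means and bars for 1 SD of 3 arrays a line. The yellow band is the range over arrays of the lower quartile of all probesets, from 5.07 to 5.16. Ddx60 and Mx1 lie below it on every transfected array, and for the probesets drawn, Ifnar1, Ifnar2 and Irf1 were not called lower in either line.

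Of the 7 sensors of nucleic acid, 5 (71.4%) were lower in both lines, beside 6.74% of all genes. Ifih1, which encodes the sensor of long double-stranded RNA known as MDA5, measured 9.20, 9.52 and 10.01 in control cells, 5.68, 5.36 and 5.2 in v-Src cells and 5.30, 5.05 and 5.60 in STAT3-C cells. It was 17.9-fold lower in v-Src cells (-4.16 ± 0.22, SE, limma adjusted p = 2.82e-05) and 19.1-fold lower in STAT3-C cells (-4.26 ± 0.22, adjusted p = 7.74e-06). The transfected arrays were close to the lower quartile of all probesets on an array, which ran from 5.07 to 5.16.

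Dhx58, the relative of the RNA sensors known as LGP2, measured 8.79, 10.11 and 9.54 in control cells, 5.91, 6.33 and 6.0 in v-Src cells and 6.15, 6.06 and 6.34 in STAT3-C cells. Ddx60, a helicase of the same response, measured 7.99, 8.27 and 8.85, then 4.16, 4.76 and 4.76, and then 4.71, 3.96 and 4.33. Neither gene overlapped with control, and every transfected array of Ddx60 was below the lower quartile. The log2 differences were -3.40 ± 0.31 and -3.30 ± 0.29 for Dhx58 and -3.81 ± 0.25 and -4.04 ± 0.25 for Ddx60 in v-Src and STAT3-C cells (SE). A further Dhx58 probeset was lower at -1.73 and -1.44, whereas the remaining one stood at 0.03 and 0.05 and was not called.

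Tlr3, the endosomal receptor of double-stranded RNA, fell by 1.16 in v-Src and 1.21 in STAT3-C cells on the log2 scale. Zbp1, a sensor of left-handed nucleic acid that can start cell death, was not called by its most abundant probeset, at -1.22 (adjusted p = 0.0628) and -0.95 (adjusted p = 0.122). Its control arrays ran from 7.83 to 9.59, and the other probeset was lower in both lines, at -1.0 and -1.04. Ifi203, of the family of interferon-inducible DNA-binding proteins, stood at 0.05 and 0.09 and was not called.

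Among the 16 antiviral effectors, 12 (75%) were lower in v-Src and 13 (81.2%) in STAT3-C cells, beside 10.4% and 10.3% of all genes. None was higher, beside 9.54% and 11.9% of all genes. Oasl2, of the family of oligoadenylate synthetases that activate RNA decay, measured 10.28, 11.34 and 10.74 in control cells, 6.16, 7.45 and 7.39 in v-Src cells and 7.0, 6.36 and 6.61 in STAT3-C cells. Its log2 difference was -3.79 ± 0.40 in v-Src and -4.13 ± 0.27 in STAT3-C cells (SE), and no transfected array overlapped with control. The other members of the family were also lower in both lines, with Oas1a at -2.56 and -2.22, Oas2 at -1.48 and -2.03, and Oas3 at -1.15 and -1.41.

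The Mx genes encode dynamin-like proteins that trap viral nucleocapsids, and most inbred mouse strains, BALB/c included, carry an Mx1 gene that makes no full protein. Mx1 transcript measured 7.04, 9.80 and 8.70 in control cells, 4.59, 4.61 and 4.75 in v-Src cells and 4.79, 4.88 and 4.89 in STAT3-C cells. Control arrays of Mx1 varied more than those of any gene named so far, and all 6 transfected arrays were below the lower quartile of the array. The log2 difference was -3.86 ± 0.60 in v-Src and -3.66 ± 0.57 in STAT3-C cells (SE). Mx2, with steadier control arrays of 9.62, 10.20 and 9.92, was at -2.70 ± 0.14 and -2.92 ± 0.15.

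Bst2, the tetherin that holds budding virus at the cell surface, was 9.51-fold lower in v-Src and 7.27-fold lower in STAT3-C cells. Rsad2, the viperin that makes a chain-terminating nucleotide, was at -1.57 ± 0.34 and -1.45 ± 0.32 on the log2 scale (SE). Its call in v-Src cells was lost without control array 3, with -1.48 and an adjusted p of 0.0525. Adar, the enzyme that edits double-stranded RNA, was 1.72-fold lower in STAT3-C cells and at -0.44 in v-Src cells, where its adjusted p was 0.0143 but its fold was under the threshold.

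Eif2ak2, the RNA-activated kinase known as PKR, was not called by any of its probesets, at -0.76 (adjusted p = 0.0774) and -0.52 (adjusted p = 0.118) for the most abundant one. For Samhd1, which breaks down deoxynucleotides, and for Cmpk2, a mitochondrial nucleotide kinase, the probeset with the highest mean was not called, at 0.06 and -0.36 for Samhd1 and -0.19 and -0.11 for Cmpk2. Another probeset of each gene was lower in both lines, at -1.6 and -1.83 for Samhd1 and -1.23 and -1.39 for Cmpk2. A further Samhd1 probeset was lower only in v-Src cells, at -1.11 against -0.24 in STAT3-C cells. Its direct difference between the lines was -0.87 and was called (limma adjusted p = 0.0016). The remaining Samhd1 probesets were not called against control. The probesets of these genes disagree, and which of them follows the full transcript was not tested.

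Of the 5 measured genes of the ISG15 and ubiquitin system, 4 (80%) were lower in v-Src and all 5 (100%) in STAT3-C cells. Over all genes the shares lower were 10.4% and 10.3%. Usp18, the protease that removes ISG15 from proteins and also restrains receptor signalling, measured 11.34, 11.95 and 11.71 in control cells, 6.67, 7.92 and 7.79 in v-Src cells and 7.67, 6.45 and 7.33 in STAT3-C cells. It was 18.4-fold lower in v-Src cells (-4.20 ± 0.33, SE, limma adjusted p = 0.000163) and 22.9-fold lower in STAT3-C cells (-4.51 ± 0.30, adjusted p = 2.71e-05). Its transfected arrays lay at least 3 log2 units under the lowest control array.

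Trim25, the ubiquitin ligase that acts on the sensor RIG-I, was at -2.36 ± 0.14 and -2.75 ± 0.17, and Trim30a, a related ligase, at -2.03 ± 0.18 and -2.50 ± 0.18 (SE). Dtx3l, a ligase that works as a partner of Parp9, was at -1.58 and -1.51, a direct difference of -0.07 that was not called. The other Dtx3l probeset was lower at -1.14 and -1.90. Its direct difference, v-Src minus STAT3-C, was 0.76 and was called (limma adjusted p = 0.00461). Herc6, the main ligase that attaches ISG15 in the mouse, was lower by its most abundant probeset only in STAT3-C cells, at -0.79 against -0.31 in v-Src cells, a direct difference of 0.48 that was under the fold threshold. Its other 3 probesets were lower in both lines, the largest at -2.13 and -2.07.

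The PARP enzymes attach ADP-ribose to proteins, and both measured here were lower in both lines, Parp9 at -1.14 and -1.21 and Parp14 at -2.23 and -1.97. The other Parp14 probeset gave -0.25 and -0.11 and was not called in either line. The guanylate-binding proteins attack membranes around intracellular pathogens. Gbp3 was 7.87-fold lower in v-Src and 6.44-fold lower in STAT3-C cells. Gbp2 was not called against control, with log2 differences of -0.80 (95% interval -1.93 to 0.33) and 0.13 (-0.78 to 1.04), and its control arrays ran from 8.82 to 10.66. Its direct difference between the transfected lines was -0.94 (limma adjusted p = 0.058, no overlap) and was not called. The other Gbp2 probeset gave a direct difference of -1.17 (adjusted p = 0.0271), which was called.

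Sp100, a scaffold of nuclear bodies that silence viral genomes, measured 8.68, 9.83 and 9.53 in control cells, 5.76, 6.02 and 6.13 in v-Src cells and 6.0, 5.87 and 5.81 in STAT3-C cells. It was 10.4-fold lower in v-Src and 10.9-fold lower in STAT3-C cells, with no overlap. Xaf1, which promotes cell death, was at -2.26 ± 0.36 and -1.33 ± 0.29, and Rtp4, a receptor chaperone induced by interferon, at -2.80 ± 0.29 and -1.80 ± 0.29 (SE). The direct differences between the transfected lines were -0.94 for Xaf1 (adjusted p = 0.0926) and -1.0 for Rtp4 (adjusted p = 0.0831) and were not called. The other Xaf1 probeset gave -0.27 and -0.52 against control and a direct difference of 0.25, none of them called.

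The direct comparison of v-Src with STAT3-C cells leaves out the control arrays and asks where the transfected lines differed from each other. Of the 46 genes, 5 were lower in v-Src cells, against 6.83% of all genes, 2 were higher, against 4.84% of all genes, and 39 were not called. By probeset 8 of the 87 were lower, beside 5.33%, and 4 were higher, beside 4.99%. The median difference was -0.06, beside -0.03 over all genes. All 46 differences lay between -1.0 and 0.73, and the median half-width of their 95% intervals was 0.305. The control arrays were normalized separately with each transfected line according to the study's methods, and if the deposited columns come from separate runs, run and line cannot be told apart here.

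**Figure D5:**
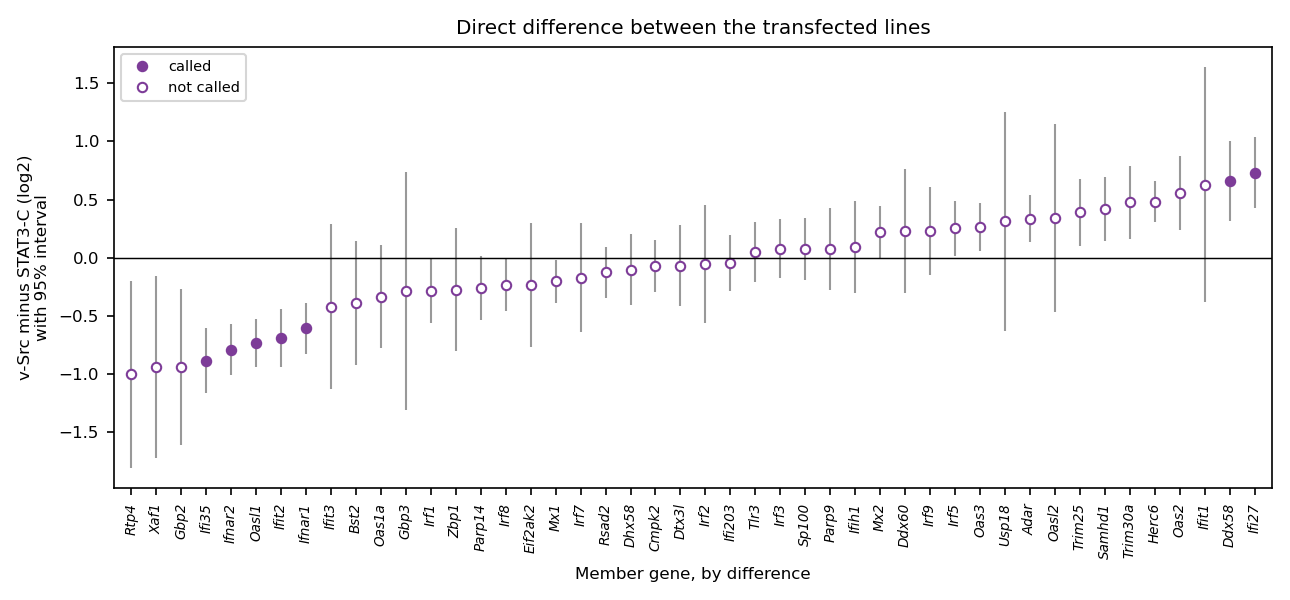
Difference in log2 level between v-Src and STAT3-C cells for each of the 46 genes, ordered by size, with lines for 95% intervals from limma on 6 arrays. Filled points were called, 5 below and 2 above 0, and the widest intervals belong to Gbp3, Ifit1 and Usp18.

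Ifi35, a leucine-zipper protein of the response, was the called gene with the largest difference. It measured 9.57, 9.74 and 9.82 on v-Src arrays 1, 5 and 6 and 10.80, 10.57 and 10.40 on STAT3-C arrays 1, 2 and 3, below control arrays of 11.54, 12.21 and 11.84. The line with v-Src was 1.84-fold lower (-0.88 ± 0.12, SE, limma adjusted p = 0.00306), and the 3 groups were in separate ranges. A separate Ifi35 probeset gave -0.86 and the remaining one -0.55, which was under the fold threshold.

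Oasl1, which restrains translation of Irf7, measured 8.33, 9.80 and 9.97 in control cells, 7.29, 7.24 and 7.04 in v-Src cells and 7.95, 7.87 and 7.95 in STAT3-C cells. The difference between the lines was -0.73 ± 0.09 (SE, limma adjusted p = 0.00207). Its fall against control in STAT3-C cells, -1.45 (adjusted p = 0.0214), was not called without control array 2 or 3 or without any one of the STAT3-C arrays, with values from -1.14 to -1.46 and adjusted p from 0.0621 to 0.0785. Control array 1 lay near the STAT3-C arrays.

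Ifit2 measured 9.85, 11.42 and 10.67 in control cells, 7.09, 7.39 and 7.41 in v-Src cells and 8.02, 8.04 and 7.90 in STAT3-C cells. It was 10.2-fold lower than control in v-Src and 6.31-fold lower in STAT3-C cells, and the difference between the lines was -0.69 ± 0.11 (SE, limma adjusted p = 0.00486). With all 9 arrays in 1 fit, where the control arrays add to the spread, the direct differences of Ifit2 and Oasl1 were not called (adjusted p = 0.147 and 0.168).

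Ddx58, which encodes the sensor of RNA ends known as RIG-I, went the other way. It measured 10.71, 10.82 and 11.08 in control cells, 9.38, 9.80 and 9.79 in v-Src cells and 9.18, 8.80 and 9.01 in STAT3-C cells. The v-Src arrays lay between the control and STAT3-C arrays, 0.66 ± 0.15 above the latter (SE, limma adjusted p = 0.0201). This call was lost without v-Src array 5 or 6 or STAT3-C array 2 or 3, with values from 0.56 to 0.66 and adjusted p from 0.051 to 0.0747. The next Ddx58 probeset gave 0.85 and was also called. Against control it was lower in STAT3-C cells, at -2.03, but not called in v-Src cells, at -1.18 (limma adjusted p = 0.0543, with overlap). The remaining Ddx58 probeset gave a direct difference of 0.07, and 0.13 and 0.06 against control, none of them called.

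Ifi27, a small mitochondrial protein, was the only one of the 46 genes called higher in v-Src than in control cells. It measured 10.66, 10.35 and 10.15 in control cells, 11.46, 11.19 and 11.38 in v-Src cells and 10.73, 10.76 and 10.36 in STAT3-C cells. The v-Src arrays were above all others, with differences of 0.96 ± 0.14 from control and 0.73 ± 0.13 from STAT3-C cells (SE, limma adjusted p = 0.00249 and 0.0085). This probeset matches several transcripts of related sequence. The other Ifi27 probeset was also called higher than control in v-Src cells, at 0.96, but it stood at 0.56 in STAT3-C cells (adjusted p = 0.0159, no overlap, fold under the threshold), and its direct difference of 0.40 was not called. The direct call was also lost with the mean of both probesets, at 0.56. For the receptor chains, whose levels are given above, the difference between the lines was -0.61 ± 0.09 for Ifnar1 and -0.79 ± 0.09 for Ifnar2 (SE). The other probesets gave 0.07 for Ifnar1 and -0.34 and -0.49 for Ifnar2 and were not called. Without v-Src array 5 or STAT3-C array 2 the Ifnar1 difference was -0.52 or -0.58, under the fold threshold.

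Genes of the same pathway outside the 48 were counted in lists. Of 44 other interferon response genes 38 were measured, and 23 (60.5%) were lower in v-Src and 25 (65.8%) in STAT3-C cells, beside 10.4% and 10.3% of all genes. With limma none was higher in either line, 1 had an unadjusted p under 0.05 in that direction in each, and SAM called 1 higher in v-Src and 0 in STAT3-C cells. The medians were -1.03 and -0.90. The 4 with the largest change were all GTPases that act on vacuoles of intracellular pathogens: Gbp6 at -4.43 and -4.02, Irgm2 at -3.37 and -3.26, Igtp at -3.23 and -2.80, and Iigp1 at -3.15 and -3.84. In the direct comparison 4 of the 38 (10.5%) were lower and 6 (15.8%) higher in v-Src cells, beside 6.83% and 4.84% of all genes.

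The ligands themselves were below the median of the arrays on average. Of 13 interferon genes 8 were measured, with a mean log2 level from 5.41 to 5.70 over the 9 arrays, and 3 of them were below the lower quartile on every array. With limma none was called in any of the 3 comparisons. At an unadjusted p under 0.05 there was 1 in v-Src, 0 in STAT3-C cells and 1 in the direct comparison, and SAM called 0 in each. Ifnb1, interferon beta, measured 6.54, 6.79 and 6.58 in control cells, 6.61, 6.63 and 6.49 in v-Src cells and 6.61, 6.45 and 6.63 in STAT3-C cells, and all groups overlapped. Ifna5, of the interferon alpha family, had the largest difference of the 8, at -0.31 in v-Src and -0.27 in STAT3-C cells. The 95% intervals over the 8 genes reached from -0.57 to 0.64 on the log2 scale against control.

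Of 13 measured genes that relay or inhibit the signal from the receptor to the nucleus, 3 were lower and 3 higher in v-Src cells (23.1% each), beside 10.4% and 9.54% of all genes. In STAT3-C cells 4 were lower (30.8%) and 1 higher (7.69%), beside 10.3% and 11.9%, so the share higher was under that of all genes. Stat2, the partner of Irf9 in the factor that binds the ISRE, measured 9.35, 9.82 and 9.78 in control cells, 7.54, 7.59 and 8.19 in v-Src cells and 7.57, 6.94 and 6.85 in STAT3-C cells. It fell by 1.88 ± 0.20 and 2.53 ± 0.21 (SE), with no overlap. Ifngr1, the receptor chain that binds interferon gamma, was at -2.11 and -1.54, and the kinase Jak2 at -0.72 and -1.81. Socs3, an inhibitor of cytokine signalling, was higher, at 3.63 and 1.43. Stat3 was higher in v-Src cells, at 1.53, and was not called in STAT3-C cells, at 0.24.

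Among 10 adapters and kinases that act downstream of the sensors, 1 was lower and 1 higher in v-Src cells (10% each), close to the 10.4% and 9.54% of all genes. In STAT3-C cells 2 were lower and 2 higher (20% each), beside 10.3% and 11.9%. The values of the 4 with the largest change are therefore given as a description. Tlr4, the receptor of bacterial lipopolysaccharide, was at 1.99 and 1.17, and Tank, an adapter of the kinase that activates Irf3, at 0.12 and 1.27. Ikbke, such a kinase itself, was at -0.51 and -0.70, and Irak1, a kinase of Toll-like receptor signalling, at -0.65 and -0.64.

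The cells were checked against markers of their type. Of 11 fibroblast markers, 6 were lower and 1 higher in v-Src cells (54.5% and 9.09%, beside 10.4% and 9.54% of all genes) and 7 lower and 1 higher in STAT3-C cells (63.6% and 9.09%, beside 10.3% and 11.9%). The mean log2 level of the list ran from 11.20 to 11.41 on the control arrays, from 9.42 to 9.83 on the v-Src arrays and from 9.76 to 9.84 on the STAT3-C arrays. Thy1 was at -5.17 and -5.18, Pdgfrb at -5.06 and -1.93, Lum at -3.17 and -3.51 and Dcn at -0.33 and -2.24, whereas Vim was at 0.01 and -0.25. Fibroblast markers thus moved with the interferon-stimulated genes, and their part in the result was not tested. Of 11 macrophage and leukocyte markers, 2 were higher in v-Src and 3 in STAT3-C cells, and none was lower. The shares higher were 18.2% and 27.3%, beside 9.54% and 11.9% of all genes. The highest log2 difference of the list was 2.12 in v-Src and 2.12 in STAT3-C cells. Mean levels ran from 6.10 to 6.19 on the control, 6.43 to 6.60 on the v-Src and 6.67 to 6.76 on the STAT3-C arrays. In each line 3 of the 11 markers were below the lower quartile on all of its arrays. None of 7 epithelial or 6 endothelial markers was called against control by limma or SAM, and at an unadjusted p under 0.05 there were 3 epithelial markers higher and 1 lower in v-Src cells, 2 higher and 1 lower in STAT3-C cells, and 0 and 1 endothelial markers higher.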

How the data were processed

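RNA of 9 cultures, 3 of each line, was measured on 1 Affymetrix whole-genome mouse array apiece. The authors scanned the arrays, summarized the probes by RMA and deposited log2 expression values, 1 for each of 45101 probesets and array. According to the methods, control arrays were normalized with each transfected line in turn, and the table does not say which run its control columns came from. Arrays have no read depth, so the number of arrays limits the precision, and 3 arrays against 3 allow no exact permutation p under 0.1.

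The 64 control probesets were left out and 45037 were fitted with limma 3.58.1 (lmFit and eBayes, R 4.3.3) on the 6 arrays of each comparison, without covariates, with Benjamini-Hochberg adjustment over all of them. The values were not normalized again. Probesets were named from the platform annotation, in which 34945 had 1 symbol, 932 several and 9160 none, and the latter kinds were not used for genes. Probesets matching several transcripts of related sequence (suffixes s and x) represent Irf2, Irf3, Tlr3, Trim25, Ifi35 and Ifi27. Groups were taken from the sample titles.

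The 48 genes and the other gene lists were chosen with earlier results of these data known, so lists are described by counts and medians beside all genes, with no list test. Values on every array were given for the 10 genes with the largest called change against control, the 6 with the largest called direct difference, and the receptors, Irf1, Irf7 and Irf9. From the further pathway lists the genes with the largest change were named by their differences, up to 4 a list, with Stat3 added and with values on every array for Ifnb1 and Stat2 alone. Promoters were shown for up to 5 of the array-level genes that hold a motif, in order of change. Alternatives were SAM (20 groupings, q under 5%), another normalization or centring, all arrays in 1 fit, a filter on level, other thresholds, trended and robust eBayes, the mean of a gene's probesets, leaving out each array, and a replicate block. The fit and SAM were tested on simulated data. Promoter windows came from RefSeq (GRCm38.p6), and the plots were made in matplotlib 3.10.9 under python 3.11.15.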

Additional observations from a re-analysis of the deposited data

Results flagged for a closer look

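For 7 of the 46 genes the change against control differed between the transfected lines, by limma's test of v-Src against STAT3-C cells, in which the control arrays cancel. Of these 5 (10.9%) were lower and 2 (4.35%) higher in v-Src cells, beside 6.83% and 4.84% of all genes, so the number higher was no larger a share than over all genes. The log2 difference (v-Src minus STAT3-C) was -0.88 for Ifi35, -0.79 for Ifnar2, -0.73 for Oasl1, -0.69 for Ifit2 and -0.61 for Ifnar1, and it was 0.73 for Ifi27 and 0.66 for Ddx58. In Ifi35, Oasl1, Ifit2 and Ddx58, by the probeset used for each gene, both lines were lower than control and the size of the fall differed. Ifnar1 and Ifnar2 were called higher than control in STAT3-C cells and not in v-Src cells. Ifi27 was called higher in v-Src cells and not in STAT3-C cells. For Ifnar1, Ifnar2 and Ifi27 the other probesets were not called in the direct comparison.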

How the results depend on the processing

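The number of genes lower than control stayed within 31 to 33 of 46 in v-Src and 33 to 35 in STAT3-C cells when any single array was left out, and no alternative moved it by over 1.5 times. The median over the genes ran from -1.90 to -1.45 in v-Src and from -1.82 to -1.36 in STAT3-C cells over the same fits, with the lowest values without control array 1, and it was -1.37 in v-Src cells when a gene's probesets were averaged. The numbers of genes higher, 1 and 2, became 0 and 0 at a fold of at least 2, and that of STAT3-C became 0 with the mean of all probesets.

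In the direct comparison the 5 genes lower became 3 with all 9 arrays in 1 fit, 0 at a fold of at least 2 and 8 with SAM. Their number stayed at 5 without any single array, but not always with the same genes. The 2 genes higher became 0 at a fold of at least 2 and with the mean of all probesets, 7 without a fold threshold and 1 at an adjusted p under 0.01, and ranged from 1 to 4 without single arrays. Oas2 was gained without v-Src array 1 or STAT3-C array 3 (0.66 and 0.61) and Oasl2 without v-Src array 1 (0.76). Gbp2 was gained without v-Src array 5 (-1.25) and Rtp4 without STAT3-C array 2 (-1.32), both lower in v-Src cells. The call of Ifnar1 was lost without v-Src array 5 and without STAT3-C array 2.

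Against control, Eif2ak2 was called lower in both lines without control array 2 (-0.98 and -0.75) and Zbp1 without control array 1 (-1.64 and -1.37). With the mean of all probesets Samhd1 in v-Src cells turned from 0.06 to -0.60, and Irf3, Ifnar1 and Ifnar2 were not called. Over the 46 genes and all alternatives, 712 single-gene values in v-Src cells kept their call, 12 gained it, 6 lost it and 1 reversed, and in STAT3-C cells 757 kept it, 5 gained it, 15 lost it and 0 reversed. In the direct comparison 696 kept it, 15 gained it, 20 lost it and 0 reversed. Another normalization or centring moved the median of all genes by at most 0.07.

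The counts of other interferon response genes under alternatives were added after seeing the data. In STAT3-C cells 16 were lower at a fold of at least 2, and 1 was higher without a fold threshold. One was higher with SAM in v-Src cells, and without single arrays the number higher was 0 to 1 in each line. In the direct comparison 2 were lower at a fold of at least 2 or at an adjusted p under 0.01, from 2 to 5 without single arrays, and 0 were higher at a fold of at least 2.

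The replicate numbers of control and STAT3-C arrays did not pair them, since the deviations of equally numbered arrays correlated at -0.09, 0.07 and 0.05, and with a replicate block 34 genes were lower, 2 were higher and the median was -1.48. The v-Src arrays share only the number 1 with the other lines, so no paired analysis was possible because fewer than 2 numbers are shared.

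Single passages of 1 line, 3 arrays a line and the floor of the array for Mx1 and Ddx60 limit all values. Differences between probesets of a gene were not resolved, among them those of Samhd1, Cmpk2, Herc6, Zbp1, Ddx58, Dhx58, Dtx3l, Parp14, Xaf1, Ifnar1 and Ifnar2.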
